A study of Mus musculus with 10 samples.

Results

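The 9 genes described here serve lymphocyte traffic. They are the chemokine receptor genes Cxcr4, Ccr7 and Ccr9, the sphingosine-1-phosphate (S1P) receptor gene S1pr1, the integrin subunit genes Itga4, Itgb1, Itgal and Itgb7, and Selplg, which encodes the selectin ligand PSGL-1. They were chosen by symbol, and 9 of 9 were found among the 16865 gene symbols of the table. Bulk RNA came from strand-specific libraries of 10 leukemic spleens of C57BL/6 mice, 5 labelled control and 5 labelled Sirt1 deleted. Every mouse was a sub-lethally irradiated recipient of intravenously injected T-cell acute lymphoblastic leukemia (T-ALL) carrying a conditional Sirt1 knockout, so the controls bear the same conditional allele. Control mice received corn oil alone by intraperitoneal injection, and the others received 3 mg of tamoxifen in corn oil. No group had tamoxifen without the deletion, so the drug and the deletion cannot be told apart. The labels used here give no age, no Cre driver and no account of whether the recipients shared a primary leukemia, so a p-value here speaks of the spread among these spleens alone. Cells of the recipient stay in such a spleen beside the leukemia, and in bulk RNA fewer cells of a type and less RNA per cell cannot be told apart.

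Blood-borne lymphocytes and leukemic T cells enter a tissue in steps. PSGL-1 binds selectins and slows the cell on the vessel wall, chemokine receptors that signal through inhibitory G proteins then switch integrins to their adhesive form, and the integrins hold the cell to ligands such as VCAM-1, ICAM-1 and MAdCAM-1. Exit toward blood or lymph follows an S1P gradient sensed by S1PR1. In T-ALL, CXCR4 and its ligand CXCL12 are known for holding leukemic cells in marrow, and CCR7 for entry into the central nervous system.

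Estimated depth was 21.2 M to 44.4 M reads per library (38.4 M ± 6.37 in the controls and 31.7 M ± 8.23 in the Sirt1 deleted group). Sirt1, a deacetylase gene and the target of the deletion, ranged from 1126 to 1348 normalized counts in the controls and from 710 to 1071 in the Sirt1 deleted libraries, without overlap. On the log2 scale it was lower by a difference of -0.44 (limma adjusted p = 0.0125, SE 0.107, and 0.00794 by exact permutation), and -0.25 after the correction described next. A value per gene does not show the loss of a single exon. T-lineage markers were abundant in every library, with a summed level of 306497 to 323359 over 19 genes in the controls and 306545 to 349873 in the Sirt1 deleted group. The 10 erythroid markers summed to 420774 to 534666 and 205550 to 466610 in the same order of groups, in cells taken after red cell lysis. Each library also had its own trend of level with transcript length. The slope of log2 deviation on log2 length ran from 0.00352 to 0.161 in the controls and from -0.240 to -0.0250 in the Sirt1 deleted group. Differences are therefore given as deposited and again after correction of each library for transcript length and GC content. Sirt1 was called after correction and whichever library was left out. Its call ended without the 3 libraries of steepest slope (-0.27, limma adjusted p = 0.128) or with B cell markers as a covariate (-0.26, limma adjusted p = 0.293). With the length slope as a covariate it stood at -0.00057 (limma adjusted p = 0.999). Those 3 settings called 0.0221%, 0.00737% and 0% of all genes tested.

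Expression of 3 integrin genes was lower after Sirt1 deletion, namely Itgal, Itga4 and Itgb1, and no member was called higher. That is 3 of 9 members (33.3%) at a limma adjusted p under 0.05, beside 32% of all 13567 genes tested. By direction, 3 of 9 were lower against a background of 17.5%, and 0 of 9 were higher against 14.5%. At an unadjusted p under 0.05 limma gave 3 lower and 1 higher, and the exact permutation test gave the same count with Itgb7 as the higher gene. The median log2 difference over the 9 was 0.090, against 0.00097 over all genes tested. The share of members called was thus near the background, and the groups overlapped for all 9 members, where they did not for 16.5% of all genes (8.28% higher and 8.18% lower). After correction 1 of 9 was called (11.1%, Itgal), beside 14.6% of 12397 genes with a known length. No member was called in limma without the 3 libraries of steepest length slope (1 lower and 1 higher at an unadjusted p under 0.05), and 1 was called lower without control library 1, without control library 2 or without Sirt1 deleted library 2. Over all genes tested, those settings called 0.0221%, 17.2%, 16.2% and 20% in the same order, so the loss of calls was general.

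**Figure D1:**
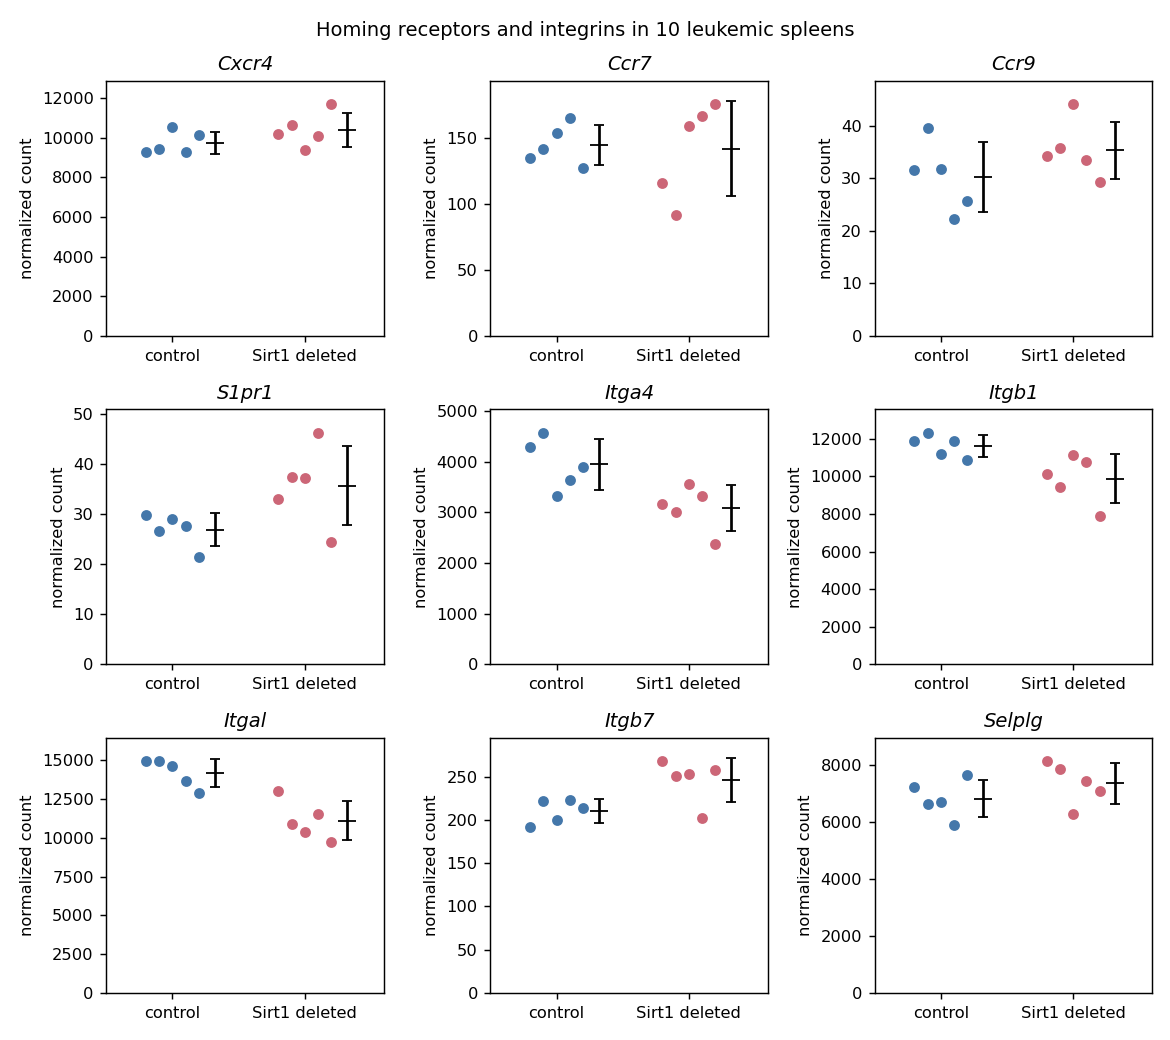
Normalized count (vertical axes, from 0) of each gene in the 5 control and 5 Sirt1 deleted libraries, drawn left to right in library order, with the group mean ± SD as a bar beside the points. For Itgal, 4 of the 5 Sirt1 deleted libraries lie below every control, whereas for Cxcr4, Ccr7, Ccr9 and Selplg the clouds lie over each other.

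The levels of the 9 genes spanned a range of 884-fold. Per kilobase of the longest coding transcript, Cxcr4 stood highest at 5576 ± 425 normalized counts (SD over 10 libraries) and above 97.1% of tested genes. Selplg followed at 3825 ± 385, Itgb1 at 2816 ± 348 and Itgal at 2422 ± 370. Cxcr4 lay above Selplg without overlap, while Selplg, Itgb1 and Itgal overlapped with their neighbours in range but kept that order in 10 of 10 libraries. Itga4 came next at 359.9 ± 65.0, 6.73-fold below Itgal. Itgb7 (85.0 ± 10.1) and Ccr7 (72.3 ± 13.2) did not differ beyond their spread, with Itgb7 the higher in 7 of 10 libraries. S1pr1 (10.3 ± 2.42) and Ccr9 (6.31 ± 1.22) were lowest, with overlapping ranges, and Ccr9 lay above only 5.65% of tested genes. Lengths are those of the longest transcript, so a gene expressed from a shorter one is placed too low.

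**Figure D2:**
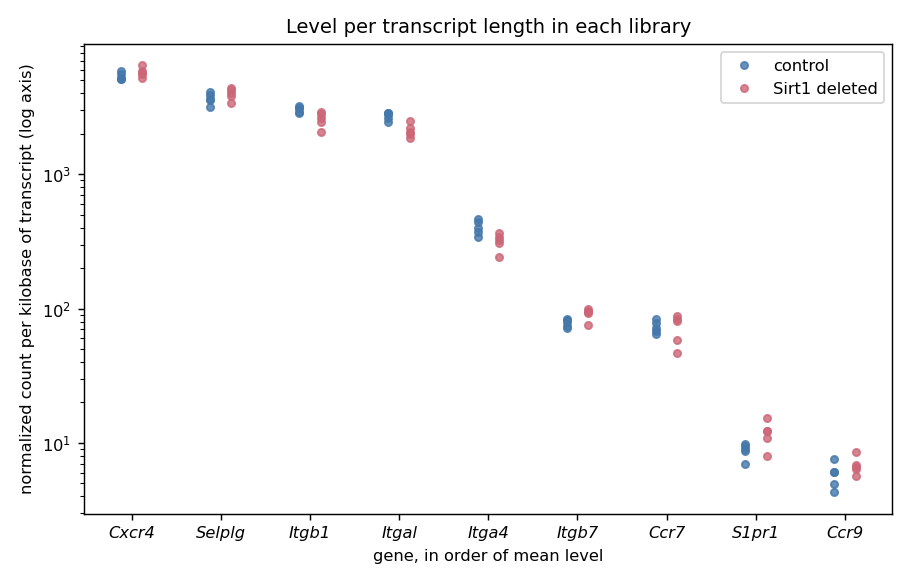
Normalized count per kilobase of the longest coding transcript (log axis) in each library, 5 control and 5 Sirt1 deleted, for the 9 genes in order of mean level. Cxcr4, Selplg, Itgb1 and Itgal form an upper group, Itga4, Itgb7 and Ccr7 lie between, and S1pr1 and Ccr9 lie lowest.

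Cxcr4 encodes the receptor for CXCL12 and lies on chromosome 1 (128588199 to 128592293, minus strand, GRCm38). Its normalized counts in control libraries 1 to 5 were 9278, 9445, 10529, 9303 and 10156, and in Sirt1 deleted libraries 1 to 5 they were 10171, 10637, 9363, 10068 and 11695. Only Sirt1 deleted libraries 2 and 5 exceeded every control, and the groups overlapped. Group means of 9742 ± 567 and 10387 ± 862 (SD, n = 5) gave a log2 difference of 0.090 (95% interval -0.047 to 0.23, limma adjusted p = 0.286). The interval reaches from a small fall to a rise of 0.23 on the log2 scale in this setting, and the corrected difference was 0.030. Over the alternatives the difference ran from -0.11 to 0.14.

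Ccr7 directs cells to CCL19 and CCL21 in lymphoid tissue (chromosome 11, 99144196 to 99155077, minus strand). It had 135, 141, 153, 165 and 127 normalized counts in control libraries 1 to 5, and 116, 91.7, 159, 166 and 175 in Sirt1 deleted libraries 1 to 5. The Sirt1 deleted libraries fell on both sides of the controls, 2 below all of them and 2 above. Their coefficient of variation was 25.4%, against 10.4% in the controls and a counting error of at most 12.3%. The log2 difference was -0.063 (95% interval -0.43 to 0.30, limma adjusted p = 0.797), and its sign turned without Sirt1 deleted library 2 (0.082).

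Ccr9, the receptor for CCL25 that guides cells to thymus and small intestine, was close to the limit of the data (chromosome 9, 123678439 to 123784330). Control libraries 1 to 5 gave 31.5, 39.6, 31.8, 22.2 and 25.7 normalized counts, and Sirt1 deleted libraries 1 to 5 gave 34.2, 35.8, 44.1, 33.4 and 29.3. These rest on about 25.8 to 38.3 reads per library, a counting error of 16.2% to 19.7%, near the spread within the control group (22.0%). The means of 30.2 ± 6.65 and 35.4 ± 5.44 differed by 0.24 on the log2 scale (95% interval -0.17 to 0.64, adjusted p = 0.351 in limma). Corrected for a transcript of 5197 bases the difference was 0.49, which also did not pass (limma adjusted p = 0.0757, range 0.0757 to 0.968 over its alternatives). Ccr9 overlaps Slc6a20a and Lztfl1 on the opposite strand, and the use of strand in counting is not given in the sources used here.

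S1pr1 carries lymphocytes out of tissue toward S1P (chromosome 3, 115710433 to 115715072, minus strand). Its control libraries 1 to 5 held 29.8, 26.6, 29.1, 27.6 and 21.4 normalized counts, and Sirt1 deleted libraries 1 to 5 held 33.0, 37.5, 37.3, 46.3 and 24.5. S1pr1 was above every control in 4 of the 5 Sirt1 deleted libraries, and Sirt1 deleted library 5 lay inside the control range. With means of 26.9 ± 3.32 and 35.7 ± 7.94, S1pr1 had the largest positive difference of the 9 genes, 0.38 on the log2 scale (SE 0.192, 95% interval -0.038 to 0.79). It did not pass (limma adjusted p = 0.144, exact permutation p = 0.0556). The difference kept its sign under all 21 alternatives that could test it, from 0.28 to 0.91, and none of them brought it past the threshold. About 22.1 to 53.0 reads stood behind each value, a counting error of 13.7% to 21.3%, beside a spread of 12.3% in the controls and 22.2% in the Sirt1 deleted group.

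Itga4 encodes the alpha-4 subunit, which pairs with beta-1 to bind VCAM-1 and with beta-7 to bind MAdCAM-1 (chromosome 2, 79255426 to 79333123, plus strand). In control libraries 1 to 5 it stood at 4296, 4569, 3322, 3645 and 3886 normalized counts, and in Sirt1 deleted libraries 1 to 5 at 3168, 3006, 3555, 3328 and 2375. Of the 5 Sirt1 deleted libraries, 3 lay below every control. Itga4 fell from 3944 ± 498 to 3086 ± 446, which is 78.3% of the control mean (log2 difference -0.36, SE 0.108, limma adjusted p = 0.0260, exact permutation p = 0.0238). Its transcript of 9767 bases is the longest of the 9, and after length and GC correction the difference was 0.050 and not called (limma adjusted p = 0.591, range 0.0110 to 0.990 over its alternatives). The call also ended without control library 1, without control library 2 or without Sirt1 deleted library 2 (limma adjusted p from 0.0573 to 0.0732), with differences still between -0.42 and -0.27 over all 10 omissions. Cerkl overlaps Itga4 on the opposite strand.

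Itgb1, the beta-1 subunit shared by many integrins, lies on chromosome 8 (128685654 to 128733200, plus strand). Control libraries 1 to 5 had 11867, 12319, 11193, 11853 and 10877 normalized counts. The Sirt1 deleted libraries 1 to 5 had 10101, 9408, 11155, 10780.2 and 7871, so 4 of 5 were below every control. Itgb1 fell by 0.25 on the log2 scale, from 11622 ± 579 to 9863 ± 1298 (SE 0.0837, limma adjusted p = 0.0398, exact permutation p = 0.0159). This was the weakest of the 3 calls. It ended when any of control libraries 1, 2, 3 and 4 or Sirt1 deleted libraries 2 and 5 was left out (limma adjusted p from 0.0503 to 0.0969), and the corrected difference was -0.12 (adjusted p = 0.131, range 0.0119 to 0.968 over its alternatives).

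Itgal encodes the alpha chain of LFA-1, the integrin that binds ICAM-1 and ICAM-2 (chromosome 7, 127296260 to 127335138, plus strand). Its control libraries 1 to 5 were at 14942, 14922, 14611, 13630.2 and 12866 normalized counts, and its Sirt1 deleted libraries 1 to 5 at 12990.2, 10859, 10401, 11527 and 9707. Sirt1 deleted library 1 lay just above the lowest control and the other 4 lay below all controls. Itgal fell from 14194 ± 914 to 11097 ± 1249, 78.2% of the control mean (log2 difference -0.36, SE 0.0757, 95% interval -0.52 to -0.20, limma adjusted p = 0.00869, exact permutation p = 0.0159). Among the 9 genes it was the only one still called after correction, at -0.18 (limma adjusted p = 0.0270, range 0.0015 to 0.971 over its alternatives). It was called whichever library was left out, with -0.42 to -0.31. It was not called without the 3 libraries of steepest length slope (-0.26, limma adjusted p = 0.0926), with a covariate for B cell markers (-0.35, adjusted p = 0.156) or with the length slope as a covariate (-0.070).

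Itgb7, the partner of alpha-4 in gut homing and of alpha-E, did not follow the other member subunits as deposited (chromosome 15, 102215995 to 102231944, minus strand). Its normalized counts were 191, 222, 199.9, 223 and 214 in control libraries 1 to 5, and 268, 250.3, 253, 202 and 257 in Sirt1 deleted libraries 1 to 5. In 4 of the 5 Sirt1 deleted libraries Itgb7 exceeded every control, and library 4 of that group lay among the controls. Itgb7 averaged 209.9 ± 13.8 and 246 ± 25.6, with a log2 difference of 0.22 (95% interval 0.016 to 0.43) that did not pass after adjustment over all genes (limma adjusted p = 0.0899, exact permutation p = 0.0317). Without Sirt1 deleted library 4 it was 0.29 and passed (limma adjusted p = 0.0262, range 0.0262 to 0.971 over its alternatives). After correction Itgb7 stood at 0.12 (limma adjusted p = 0.385), and Itga4 was then also above 0 at 0.050, so the contrast with that subunit was not kept.

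Selplg, whose protein PSGL-1 binds selectins when properly glycosylated, lies on chromosome 5 (113818536 to 113832644, minus strand). It measured 7222, 6623, 6716, 5904 and 7663 normalized counts in control libraries 1 to 5 and 8138, 7866, 6282, 7431 and 7101 in Sirt1 deleted libraries 1 to 5. The groups overlapped across most of their range. The means of 6826 ± 664 and 7363 ± 724 differed by 0.11 on the log2 scale (95% interval -0.066 to 0.28, limma adjusted p = 0.312), and the corrected difference had the opposite sign at -0.087.

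**Figure D3:**
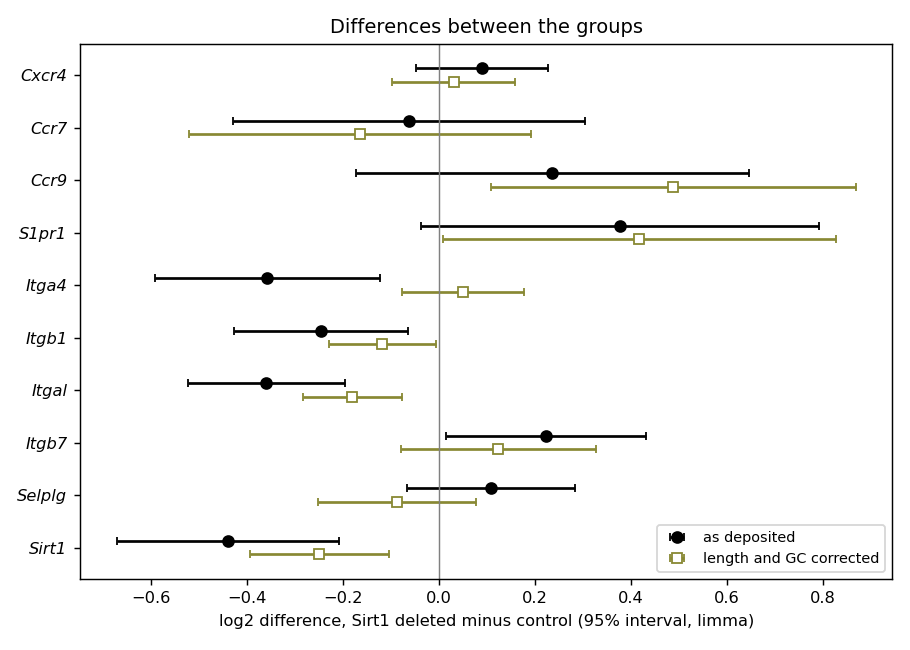
Log2 difference, Sirt1 deleted minus control, with its 95% interval from limma for the 9 genes and Sirt1, as deposited (filled circles) and after correction for transcript length and GC content (open squares). Itga4 moves from -0.36 to 0.050, Itgal stays below 0 at -0.18, and the intervals of Ccr9 and S1pr1 are the widest.

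Length and difference were related across the whole table (Spearman rho -0.61 over 12397 genes, which are not independent replicates). The 3 members called lower have transcripts of 3815 (Itgb1), 5222 (Itgal) and 9767 bases (Itga4), while Cxcr4, Selplg and Ccr7 have 1805, 1855 and 1978. Among the members not called, the order does not hold. Ccr9 has 5197 bases and a positive difference (0.24). S1pr1 and Itgb7, with 3046 and 2683 bases, stand at 0.38 and 0.22, and the shorter Ccr7 at -0.063.

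**Figure D4:**
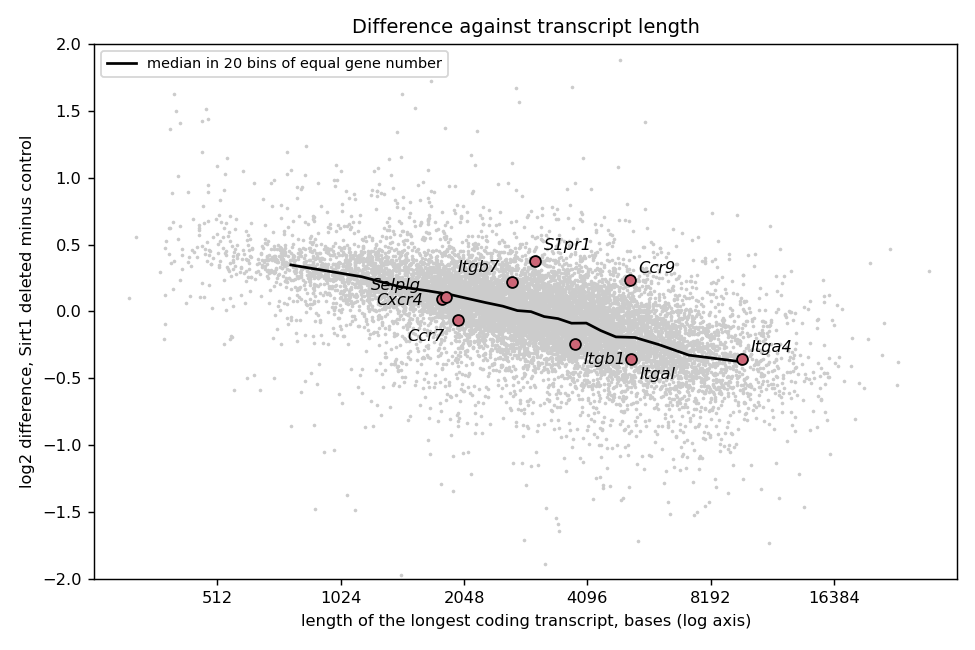
Log2 difference, Sirt1 deleted minus control, against the length of the longest coding transcript in bases (log axis) for 12397 genes (grey, 10 of them beyond the ±2 shown), with the median in 20 bins of equal gene number (line) and the 9 homing genes (red). Itga4 lies near the line, Itgal and Itgb1 lie below it, and S1pr1 and Ccr9 lie above it.

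Integrins act as pairs, so subunits were also compared within each library, as 3 ratios of normalized counts with exact permutation p-values adjusted over the 3. The ratio of Itgb7 to Itgb1, the beta subunits that share alpha-4, was 0.0161, 0.0180, 0.0179, 0.0188 and 0.0197 in control libraries 1 to 5 and 0.0265, 0.0266, 0.0227, 0.0187 and 0.0327 in Sirt1 deleted libraries 1 to 5. Its mean was 0.0181 ± 0.00131 in the controls and 0.0254 ± 0.0052 after deletion, or 0.47 on the log2 scale (SE 0.142, adjusted p = 0.0357 from an exact permutation p of 0.0238). The ratio in 4 of the 5 Sirt1 deleted libraries was above every control. The corrected difference was 0.24 (exact adjusted p = 0.0595, range 0.0119 to 0.114 over its alternatives), and leaving out control library 1, 2 or 3 also gave an exact adjusted p of 0.0595. Itgb1 transcript outnumbered Itgb7 in both groups, by 39.0 to 1 and 28.6 to 1 per kilobase.

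The ratio of Itgal to its LFA-1 partner Itgb2 fell from 2.45 ± 0.0688 to 2.21 ± 0.133. It lay between 2.37 and 2.52 in the controls and between 2.01 and 2.33 in the Sirt1 deleted libraries, without overlap (log2 difference -0.15, adjusted p = 0.0238 from an exact permutation p of 0.00794, the lowest possible with 5 libraries a group). Corrected for length and GC content the difference was 0.038 and did not pass. Itgb2, the common beta-2 chain, fell on its own by 0.21 (limma adjusted p = 0.0286) and by 0.22 after correction. The ratio of Ccr9 to Ccr7 was 0.212 ± 0.0530 and 0.266 ± 0.0873, with overlapping groups (log2 difference 0.30, exact permutation p = 0.317). It passed after correction, where it was 0.65 (exact adjusted p = 0.0476, range 0.0476 to 0.619 over its alternatives). Both genes of that ratio are low, and Ccr9 carries most of the counting error.

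The RefSeq promoter table (GRCm38.p6) held 5 of the 9 members. The 4 shown are the alpha-4 gene with its beta partners, whose ratio differed between the groups as deposited, and Cxcr4 as the most abundant member. Each line gives the 250 bases before the start, 5′ to 3′ on the gene's strand, with the capitals marking exact matches on either strand to GTAAACA (FOXO), CCACCC (KLF), GGGCGG (GC box), CCGGAAG (ETS), TGTGGT (RUNX) or CACGTG (E-box).
Itga4, chr2:79255176-79255425, plus strand: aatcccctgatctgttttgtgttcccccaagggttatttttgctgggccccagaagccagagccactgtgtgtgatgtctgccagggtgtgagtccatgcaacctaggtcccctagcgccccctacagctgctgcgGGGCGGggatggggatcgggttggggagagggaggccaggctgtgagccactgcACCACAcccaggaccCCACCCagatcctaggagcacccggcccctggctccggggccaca
Itgb1, chr8:128685404-128685653, plus strand: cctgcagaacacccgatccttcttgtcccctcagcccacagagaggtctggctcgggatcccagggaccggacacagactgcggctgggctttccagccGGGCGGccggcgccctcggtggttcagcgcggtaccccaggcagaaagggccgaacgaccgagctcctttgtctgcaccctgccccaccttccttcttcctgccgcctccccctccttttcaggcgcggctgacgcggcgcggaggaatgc
Itgb7, chr15:102231936-102232185, minus strand: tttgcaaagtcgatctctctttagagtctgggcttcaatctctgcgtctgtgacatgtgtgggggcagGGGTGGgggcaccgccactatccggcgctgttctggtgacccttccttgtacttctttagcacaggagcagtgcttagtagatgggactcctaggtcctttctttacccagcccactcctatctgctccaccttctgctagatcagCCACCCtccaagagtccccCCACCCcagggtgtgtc
Cxcr4, chr1:128592300-128592549, minus strand: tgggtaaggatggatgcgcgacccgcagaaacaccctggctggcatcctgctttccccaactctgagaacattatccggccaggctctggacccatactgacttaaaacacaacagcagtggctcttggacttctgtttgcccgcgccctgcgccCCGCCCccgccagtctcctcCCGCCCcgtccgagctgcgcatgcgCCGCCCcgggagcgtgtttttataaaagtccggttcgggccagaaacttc
Itgb1 and Cxcr4 held GC boxes alone, 1 and 3, and Itgb7 held 3 matches to the KLF letters alone. Itga4 held 1 KLF, 1 GC box and 1 RUNX match. Among 32851 promoters of the same length, 32.7% hold a GC box, 28.1% the KLF letters and 14% the RUNX letters. None of the 4 has the FOXO, ETS or E-box letters, which 3.17%, 6.91% and 6.02% of promoters hold. The Itgb1 and Cxcr4 windows are richer in CpG, with 21 and 19 sites, than those of Itga4 (6) and Itgb7 (5). These matches describe letters in a window and not bound sites.

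Beyond the 9 genes, 8 lists held the other genes of the pathway, 148 symbols of which 138 were in the table and 111 were tested. Of these, 30 were called lower (27%, against 17.5% of all genes) and 12 higher (10.8%, against 14.5%), with a median log2 difference of -0.13. After correction 15 were lower (13.5%, against 6.12%) and 3 higher (2.7%, against 8.48%), and 10 of the 42 calls were kept, all 10 of them lower (Itgad, Itgb2, Rasgrp1, Vcl, Lims1, Vcam1, Pecam1, Spn, C1galt1 and Gnai3). Without the 3 libraries of steepest length slope limma called 0, beside 0.0221% of all genes, with 23 lower and 9 higher at an unadjusted p under 0.05. Single libraries moved these counts. Without control library 1 they were 14 lower and 3 higher, without control library 2 they were 16 and 3, without Sirt1 deleted library 2 they were 17 and 7, without control library 4 they were 23 and 6, and without Sirt1 deleted library 5 they were 22 and 7. Those omissions called 17.2%, 16.2%, 20%, 23.2% and 25.2% of all genes in the same order, against 32% with every library.

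**Figure D5:**
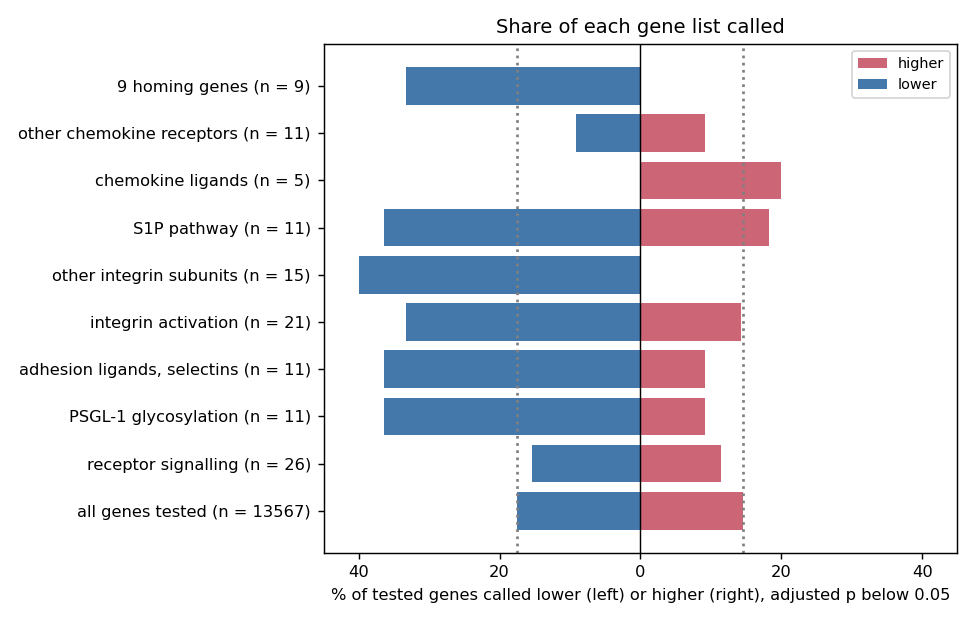
Share of tested genes called lower (left) and higher (right) at a limma adjusted p under 0.05 in the 9 homing genes, each of the 8 other lists and all genes tested, with the number tested in brackets and dotted lines at the shares of all genes (17.5% and 14.5%). The list of other integrin subunits has 40% lower and 0% higher.

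Among chemokine receptors, 1 of 11 tested rose and 1 fell (9.09% each, against 14.5% and 17.5% of all genes). Cxcr3, the receptor for interferon-induced chemokines, rose from 10.6 ± 2.49 to 20.3 ± 3.76 normalized counts (log2 difference 0.89, limma adjusted p = 0.0148) without overlap of the groups, on very few reads. Ccr4, which binds CCL17 and CCL22, was the most abundant of them per kilobase (611) and fell from 1915 ± 106 to 1513 ± 278 (-0.36, limma adjusted p = 0.0246). Neither was called after correction (0.75 and -0.32), where the decoy receptor gene Ackr1 was the 1 gene called (-0.64, against -0.43 and not called as deposited). The ligands of the 3 member receptors that were measured here were scarce, with Cxcl12 at 7.74 ± 4.03 and 12.1 ± 7.97 normalized counts, Ccl19 at 22.4 ± 5.56 and 13.6 ± 8.23, and Ccl25 at 81.8 ± 7.77 and 92.2 ± 12.3. As deposited none of these 3 was called, and after correction Ccl19 was called lower (-1.23, limma adjusted p = 0.0431, range 0.0431 to 0.968 over its alternatives). The Ccl19 values rest on about 2.99 to 38.7 reads per library, a counting error of up to 57.8%. No Ccl21 gene was among the 10 ligands found, so the level of that Ccr7 ligand is not known here. Of 5 ligands tested, Ccl5 alone was called (21.9 ± 10.6 to 40.4 ± 10.9, 0.91, limma adjusted p = 0.0321, corrected 0.51 and not called). That is 20% of the ligands tested, beside 32% of all genes.

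In the S1P pathway 4 of 11 fell and 2 rose, and limma called 0 of 11 after correction (4 lower and 1 higher at an unadjusted p under 0.05). The shares as deposited were 36.4% lower and 18.2% higher, against 17.5% and 14.5% of all genes. Foxo1, a transcription factor known to raise Klf2 and Ccr7, fell from 1163 ± 90.7 to 851 ± 112 without overlap (-0.46, limma adjusted p = 0.00844, corrected -0.11). Klf2, the factor known to drive S1pr1, stood at 157 ± 39.1 and 232 ± 61.2 normalized counts (0.55, limma adjusted p = 0.0558). Cd69, whose protein draws S1PR1 off the cell surface, stood at 172 ± 11.4 and 162 ± 4.23 (-0.090, limma adjusted p = 0.434). The S1P kinase gene Sphk1 rose by 0.39 and the receptor gene S1pr4 by 0.31 to 352 ± 37.4, while the S1P-degrading Sgpl1 fell by 0.27 and the phosphatase gene Sgpp1 by 0.35. S1pr4, at 133 per kilobase, lay well above S1pr1 at 10.3.

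Of 15 other integrin subunits 6 fell and 0 rose (0 also at an unadjusted p under 0.05 in limma), and 2 were called lower after correction. That is 40% lower, against 17.5% of all genes, and 13.3% against 6.12% after correction. Itga9 had the highest level per kilobase of any alpha subunit on this list (1469) and fell from 11118 ± 956 to 9506 ± 526 (-0.22, limma adjusted p = 0.0223), but stood at 0.060 after correction. Itgad, a partner of Itgb2 on splenic macrophages, fell from 439.7 ± 122 to 243 ± 67.9 (-0.86, corrected -0.77, called in both). Itgav (-0.41, corrected -0.070) and Itga6 (-0.33, corrected -0.18) lost their calls. Several macrophage markers were lower too. Of 11 tested, 6 fell (54.5%, against 17.5% of all genes), 0 rose and 5 were not called. After correction 6 of 11 were again lower (54.5%, against 6.12%). The summed level of the 12 listed was 9290 to 13052 in the controls and 5943 to 8541 in the Sirt1 deleted libraries. A mean log2 score of macrophage and neutrophil markers together was used as a covariate, and Itgad then stood at -0.86 and was still called in limma. That score was 7.98 to 8.55 in the controls and 7.95 to 8.54 in the Sirt1 deleted libraries, so it did not carry the fall of the macrophage markers. The macrophage markers alone were not used as a covariate.

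Among 21 genes of integrin activation 7 fell and 3 rose, and 3 fell and 1 rose after correction. The shares as deposited were 33.3% lower and 14.3% higher, against 17.5% and 14.5% of all genes. After correction they were 14.3% and 4.76%, against 6.12% and 8.48%. Rasgrp1, an exchange factor for Ras, fell from 6658 ± 918 to 4418 ± 970 (-0.61, corrected -0.37). Vcl (vinculin) fell by 0.51 and Lims1 by 0.42, with -0.29 and -0.23 after correction, and these 3 were called both ways. Talin (Tln1, -0.17) was called as deposited and was 0.072 after correction, and the kindlin gene Fermt3 was at 0.037 and was not called. Fyb, an adaptor that links the T cell receptor to integrins, had the highest level per kilobase of the list (5919) and a difference of -0.19 that did not pass (limma adjusted p = 0.0523). Sharpin, an integrin inhibitor, rose by 0.30 (limma adjusted p = 0.0230, corrected 0.12). The others called higher were Rasgrp2 (0.25, limma adjusted p = 0.0271, groups not overlapping) and Skap1 (0.22, limma adjusted p = 0.0383). None of these 3 was called after correction (0.12 for Rasgrp2 and 0.18 for Skap1). The 1 gene called higher there was Apbb1ip (0.15, limma adjusted p = 0.0371, against 0.13 and not called as deposited).

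Of 11 adhesion ligands and selectins, 4 fell and 1 rose (36.4% and 9.09%, against 17.5% and 14.5% of all genes). After correction 4 fell and 0 rose (36.4% and 0%, against 6.12% and 8.48%). The sets differ, since 3 of the 5 calls were kept. Vcam1, the ligand of alpha-4 beta-1, fell from 2434 ± 599 to 1407 ± 428 (-0.82, limma adjusted p = 0.0137, corrected -0.71). Vcam1 is also expressed by red pulp macrophages, whose markers are given beside Itgad. Spn (CD43) fell by 0.24 and Pecam1 by 0.28, and both were called after correction. Icam2 rose by 0.25 (corrected 0.038).

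The enzymes that build selectin-binding sugars on PSGL-1 had 4 of 11 lower and 1 higher (36.4% and 9.09%, against 17.5% and 14.5% of all genes). C1galt1, which makes the core-1 O-glycan, fell from 1751 ± 265 to 996 ± 273 (-0.85, groups not overlapping) and was the only gene of its list called after correction (-0.53). Gcnt1, the core-2 branching enzyme, fell by 0.54 (corrected -0.33, not called). Fut7, the fucosyltransferase of selectin ligands in lymphocytes, was too low to test, with means of 3.69 and 7.70 normalized counts, whereas the galactosyltransferase gene B4galt1 was the most abundant of the list (3117 per kilobase). Among 26 genes of receptor signalling 4 fell and 3 rose, among them Gna13 (-0.38) and Arrb1 (-0.56) lower and Gnb2 (0.25), Rgs10 (0.29) and Coro1a (0.26) higher. None of these 5 was called after correction, where the list had 3 lower and 2 higher. The shares of this list were 15.4% lower and 11.5% higher as deposited, against 17.5% and 14.5% of all genes. After correction they were 11.5% and 7.69%, against 6.12% and 8.48%.

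Cells other than T cells also carry several of the 9 genes, B cells among them. The B cell markers were low, with a summed level over 12 genes of 300.3 to 408 in the controls and 382 to 609 in the Sirt1 deleted libraries. Of 11 tested, 3 rose (27.3%, against 14.5% of all genes) and 0 fell. Their mean log2 score ran from 4.55 to 5.11 in the controls and from 4.89 to 5.54 in the Sirt1 deleted libraries. It was highest in Sirt1 deleted libraries 5 and 2 (5.54 and 5.51), which also had the steepest negative length slopes (-0.240 and -0.116). With these markers as a covariate limma called no member (1 lower and 0 higher at an unadjusted p under 0.05), and it called 0.00737% of all genes tested. Whether B cells, length slope or group lay behind the lost calls was not tested. Itgal then stood at -0.35, Itga4 at -0.21 and Itgb1 at -0.12, against -0.36, -0.36 and -0.25 without the covariate. Neutrophil markers summed to 1659 to 4362 and 2175 to 8837, with 2 of 10 higher (20%, against 14.5% of all genes) and 0 lower. Of the 10 erythroid markers 2 were called lower (20%, against 17.5% of all genes) and 0 higher. After correction 6 of these 10 were lower (60%, against 6.12%) and 0 higher. Of the 19 T-lineage markers 4 were called higher (21.1%, against 14.5%) and 1 lower (5.26%, against 17.5%). After correction 0 of these 19 were higher and 1 was lower.

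The genes whose profile over the 10 libraries was most like that of each member were found by the mean absolute difference of log2 deviations. For Itgal they were Map4k4 and Ice1 (0.0270 log2 units each, against a mean deviation of 0.191 of Itgal itself), for Itgb1 Cul5 and Tcea1 (0.0229 for the latter), and for Itga4 Lemd3 (0.0545) and Fzd5 (0.0575). For Cxcr4 they were Tab1 (0.0151) and Rack1 (0.0195), for Selplg Rdm1 and Aars2, and for Itgb7 Zc3h8 and Creld2. The low genes Ccr7, Ccr9 and S1pr1 had no close match, their nearest genes being Kyat3 (0.107), Lrrn4cl (0.113) and Ppp1r13l (0.156).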

How the data were processed

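RNA of 10 leukemic spleens was sequenced. The submitters' processing notes name kallisto 0.44.0, DESeq without a version, and the mouse build mm10. The deposited signal is 1 table of normalized counts per gene symbol with 1 column per library, and 0 columns were left out. The annotation, gene filter and use of strand in counting are not given in the sources used here. The low values lie within 0.1 of whole multiples of 1 step for 85.0% to 92.1% of them, which gave the depth, but values are not whole reads and no count model was fitted. Read counts derived from the step, and their errors, cover counting error only.

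Genes with a value of 10 or more in at least 5 libraries were tested as log2(value + 1) with limma 3.58.1 (limma-trend, R 4.3.3), control against Sirt1 deleted, with no covariate. Benjamini-Hochberg adjustment ran over all 13567 genes, with a threshold of 0.05, two-sided. Fold changes on this scale understate those of low genes. Exact permutation tests used the 10 libraries, two-sided. GENCODE M21 (GRCm38) gave positions and, for 12397 tested genes, the longest coding transcript. The correction subtracted natural splines (5 degrees of freedom each) on log2 length and GC content from each library, and takes away real differences too where they track length. Members and lists were chosen with earlier results of these data known. Named genes are the members, Sirt1, and in each list the 5 smallest p and the highest level per kilobase, some given only in counts and 1 not reported here, and 2 nearest profiles per member. Klf2, Cd69, Tln1, Fermt3, Rasgrp2, Skap1, Apbb1ip, Fut7 and Gnai3 were added after their values were seen. Alternatives were other pseudocounts (0.5 and 5), filters (none, 50), scalings, array weights, the correction, 3 covariates, and omission of libraries. Steps were tested on simulated data. Figures used matplotlib 3.10.9 in Python 3.11.15.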

Additional observations from a re-analysis of the deposited data

Results flagged for a closer look

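In groups of 5 libraries, a library was singled out where its gap to the nearest other exceeded 0.71 of the group's range, which chance gives for about 1 group in 20. Of the members this held for Itgb7, at 202 normalized counts in Sirt1 deleted library 4 against 250.3 to 268 in the other 4. Control library 5 stood apart for 5 further genes, highest for Ccl5 (39.9), S1pr4 (325) and Tpst2 (726) and lowest for Rasgrp1 (5075) and Lims1 (3005). Sirt1 deleted library 5 was highest for Sharpin (2147, against 1558 to 1715). Of 114 groups examined 7 met the rule.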

How the results depend on the processing

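No paired analysis was possible because the replicate numbers follow accession order and tie no control to a Sirt1 deleted library. Members called lower numbered 1 after length and GC correction and 0 with the length slope as a covariate, with a covariate for B cell markers or without the 3 libraries of steepest slope (limma, unadjusted p under 0.05: 0, 1 and 1 lower, 1, 0 and 1 higher). They ranged from 1 to 3, and members called higher from 0 to 1, when each library was left out. In the 8 other lists those 4 settings gave 15, 0, 0 and 0 lower and 3, 0, 0 and 0 higher (unadjusted for the last 3: 4, 19 and 23 lower, 1, 6 and 9 higher), and leaving out a library gave 14 to 30 lower and 3 to 15 higher. Over all genes they called 14.6%, 0%, 0.00737% and 0.0221%, and leaving out a library called 16.2% to 34.7%, with 17.2% without control library 1, 16.2% without control library 2 and 20% without Sirt1 deleted library 2. With 0% called by the slope covariate, 292 genes were higher and 285 lower at an unadjusted p under 0.05.

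Cases in which a log2 difference changed sign include the following. Correction gave Itga4 0.050, Selplg -0.087, Ccl25 -0.025, Itga9 0.060, B4galt1 0.043, Tln1 0.072, Fermt3 -0.067 and the Itgal to Itgb2 ratio 0.038. The slope covariate gave Cxcr4 -0.11, Itga4 0.047, Itgb1 0.096, Ccr4 0.036, Ccr3 0.054, Ccl25 -0.083, Cxcl12 -0.16, Sgpp1 0.10, Sgpl1 0.049, Vcl 0.028, Rasgrp1 0.0089, Rapgef1 0.020, Sharpin -0.067, Fyb 0.0033, C1galt1 0.10, Galnt2 0.045, B4galt1 0.0079, Rgs10 -0.053 and Coro1a -0.0094. The B cell covariate gave Ccr7 0.013, Cxcl9 0.11, Cxcl12 -0.15 and Mfsd2b 0.077, quantile normalization gave B4galt1 0.0088, and omission of Sirt1 deleted library 2 gave Ccr7 0.082. The Itgb7 to Itgb1 ratio was 0.24 and the Ccr9 to Ccr7 ratio 0.65 after correction. Without the steepest libraries the Itgb7 to Itgb1 ratio was 0.32 and the Itgal to Itgb2 ratio -0.099, neither past the threshold. Leaving out a library gave 0.37 to 0.57 for Itgb7 to Itgb1, -0.17 to -0.11 for Itgal to Itgb2 and 0.15 to 0.45 for Ccr9 to Ccr7. Itgb1 also lost its call under quantile normalization. Slope covariate and group are closely tied, since their slopes do not overlap, and fewer libraries enter the omissions. The cause of the other changes was not tested. Counting error reached 21.3% for S1pr1 and 19.7% for Ccr9.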
